A study of Rattus norvegicus with 10 samples.

Results

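Carboxylesterases and epoxide hydrolases are liver enzymes that add water across an ester, an amide or an epoxide. The 7 genes described are Ces1c, Ces1d, Ces1e and Ces2c (carboxylesterases), Aadac (arylacetamide deacetylase), Ephx1 (microsomal epoxide hydrolase) and Ephx2 (soluble epoxide hydrolase). They were chosen by name among 14217 genes with a probe set. All 7 had one of their own, 8 probe sets in all out of 31042 tested, with Ces1c represented by 2. The samples were livers of 10 rats (Harlan Sprague Dawley), whose RNA was read on 1 rat genome expression array per animal. In the HMB group 5 rats received 2-hydroxy-4-methoxybenzophenone (HMB, also called oxybenzone, an ultraviolet filter of sunscreens) in the diet at 10000 ppm for 13 weeks. In the control group 5 rats received 0 ppm. All animals ate the same base diet (NTP-2000), and no sex or age was given in the sources used here. HMB replicate 1 carries an HMB title and chemical label but a dose label of 0 ppm, and it was kept in the HMB group. Cages held 5 rats each. Should a cage have held a whole group, an effect of the cage and one of HMB cannot be told apart.

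Carboxylesterases are serine hydrolases of the endoplasmic reticulum that cleave ester and amide drugs, pesticides and some lipids. Enzymes of the CES1 class prefer esters with a large acyl group and a small alcohol, and those of the CES2 class prefer the reverse. Aadac is anchored in the same membrane and deacetylates arylacetamides. Ephx1 converts reactive arene and alkene epoxides, many of them made by cytochromes P450, to dihydrodiols. Ephx2 acts in the cytosol and peroxisomes on fatty acid epoxides made from arachidonic and linoleic acid, and is known as a target of the receptor PPAR-alpha. In rodent liver several of these genes respond to foreign compounds through the receptors CAR and PXR or through NRF2.

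The stretches of 250 bases before the start of Ces1c, Ces1d and Ces2c are shown because Ces1c and Ces1d are neighbours and nearly equal between the groups, while Ces2c varied more between animals. They are taken from a table of RefSeq promoters (rat assembly GRCr8), in which 6 of the 7 members were matched, all but Ephx2. All 3 lie on the + strand, Ces1c at chr19:30099197-30099446, Ces1d at chr19:30046244-30046493 and Ces2c at chr1:270376951-270377200. Capitals mark matches to any of the 8 motifs searched, on either strand.
Ces1c: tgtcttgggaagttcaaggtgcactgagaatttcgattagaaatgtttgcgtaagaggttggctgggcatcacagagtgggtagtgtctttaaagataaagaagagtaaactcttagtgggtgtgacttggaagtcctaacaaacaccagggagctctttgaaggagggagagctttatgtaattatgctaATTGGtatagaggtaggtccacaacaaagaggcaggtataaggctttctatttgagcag
Ces1d: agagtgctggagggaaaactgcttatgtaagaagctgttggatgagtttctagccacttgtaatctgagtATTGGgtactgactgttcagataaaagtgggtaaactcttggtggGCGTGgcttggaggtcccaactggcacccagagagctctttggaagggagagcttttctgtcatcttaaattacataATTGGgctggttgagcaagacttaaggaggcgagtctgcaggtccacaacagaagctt
Ces2c: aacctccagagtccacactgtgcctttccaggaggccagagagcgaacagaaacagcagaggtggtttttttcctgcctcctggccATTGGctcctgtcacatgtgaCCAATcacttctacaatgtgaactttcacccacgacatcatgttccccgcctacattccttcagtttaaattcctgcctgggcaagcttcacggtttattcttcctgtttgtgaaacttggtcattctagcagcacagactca
Ces1c holds 1 match to CCAAT, read on the other strand as ATTGG, from 59 to 55 bases before its start, and Ces1d holds one from 58 to 54 bases before its start and another from 180 to 176. Ces2c holds 2 matches to CCAAT, 1 on each strand. A match to CCAAT occurs in 11385 of 33469 windows of this length. Ces1d also holds 1 match to GCGTG, the core letters bound by the aryl hydrocarbon receptor (AhR), which 25.9% of windows hold. AGGTCA (a nuclear receptor half-site), DR1 (that half-site and its direct repeat with a single base between), DR4 (the repeat with a wider gap), TGACNNNGC (the antioxidant response core) and TATAAA were not found in the windows of the 6 members. They occur in 14.1%, 0.0508%, 0.00299%, 10.1% and 12.9% of windows. GGGCGG had 1 match, in Ephx1, against 30.5% of windows. In a global alignment the windows of Ces1c and Ces1d shared 157 identical bases, or 62.8% of 250, the highest of the 15 pairs of members, the others lying between 47.6% and 57.2%.

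None of the 7 members passed the test between HMB and control rats (limma, Benjamini-Hochberg adjusted p from 0.317 to 0.996 over 31042 probe sets, threshold 0.05). Over all probe sets 528, or 1.70%, passed, 219 of them (0.705% of all) higher and 309 (0.995%) lower in HMB. That count was 0 without control 2, 4 or 5 or HMB 4, 1653 without control 1, 125 after cyclic loess and 106 after quantile normalization. An unadjusted p under 0.05 was found for 0 members and for 24.1% of probe sets. In 0 of 7 members were the values of the 5 HMB and the 5 control rats free of overlap, against 5.77% of all probe sets. The median log2 difference of the members was 0.02, beside -0.02 over 14217 genes. Ephx2 in control 2 stood 9.17-fold above the mean of the other 4 controls, and with that animal left out the Ephx2 difference turned from lower to higher in HMB.

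**Figure D1:**
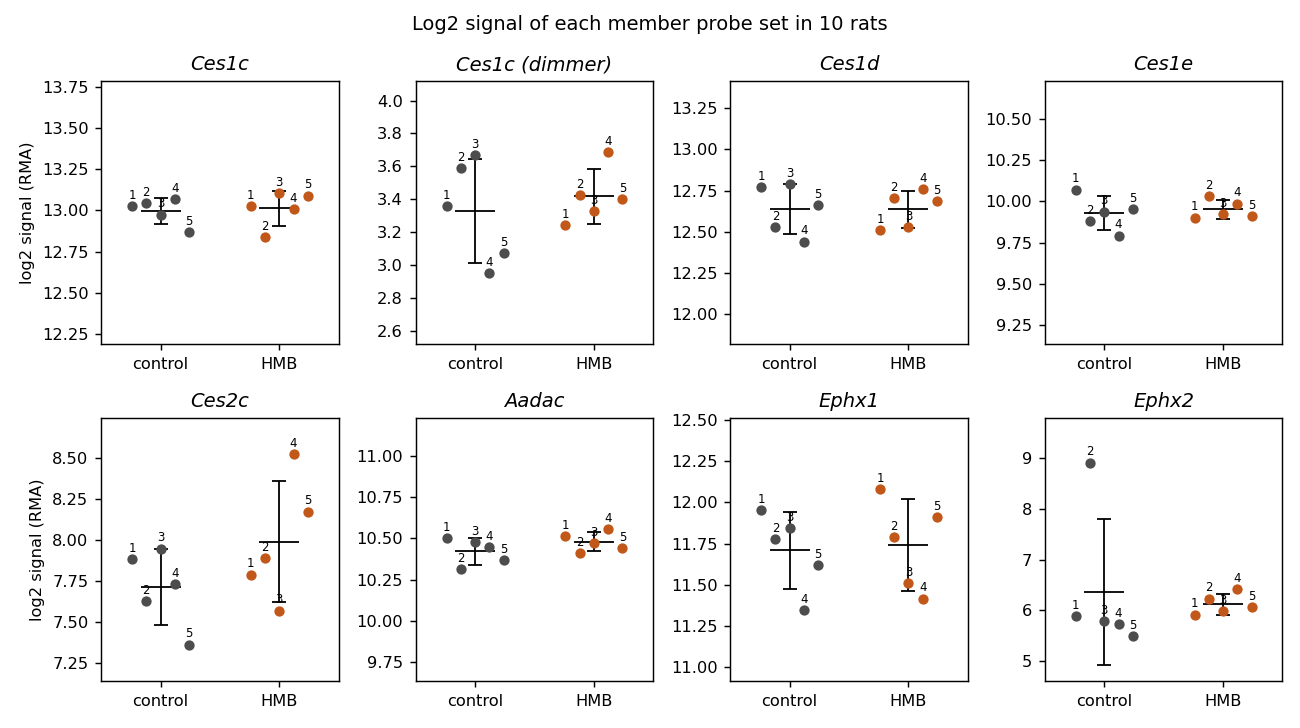
Log2 signal (RMA) of each member probe set in each rat. Points are animals with their replicate number, horizontal bars are group means and whiskers are SD (n = 5). Each panel spans 1.6 log2 units except Ephx2, which spans 5.2. The groups overlap in every panel, and control 2 stands apart for Ephx2.

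Among the CES1 carboxylesterases, Ces1c, a secreted plasma esterase in rodents, had log2 signals of 13.03, 13.05, 12.98, 13.07 and 12.87 in controls 1 to 5 and of 13.03, 12.84, 13.10, 13.01 and 13.09 in HMB 1 to 5. The groups overlapped, with HMB 1 and HMB 4 inside the control range. HMB 2 lay below every control, and HMB 3 and HMB 5 lay above every control. The log2 difference was 0.02 ± 0.08 (SE, n = 5 per group, limma adjusted p = 0.918), with a 95% interval from -0.15 to 0.19, or 0.898-fold to 1.14-fold. Its dimmer second probe set was at 3.33 ± 0.31 (SD, n = 5) in controls and 3.42 ± 0.17 in HMB (limma adjusted p = 0.719). It followed a different order of animals, lowest in control 4 at 2.95 and highest in HMB 4 at 3.69.

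Ces1d, the gene of a triacylglycerol hydrolase of the liver, had signals of 12.77, 12.53, 12.79, 12.44 and 12.66 in controls and 12.51, 12.70, 12.53, 12.76 and 12.68 in HMB. Every HMB value lay inside the control range. The difference was -0.0010 ± 0.092 on the log2 scale (SE, limma adjusted p = 0.996), with an interval from 0.870-fold to 1.15-fold. Ces1e, whose product egasyn holds beta-glucuronidase in the endoplasmic reticulum, was at 10.07, 9.88, 9.94, 9.79 and 9.96 in controls and at 9.90, 10.03, 9.92, 9.99 and 9.91 in HMB. Here too the HMB animals all fell within the control range. The difference was 0.02 ± 0.08 (limma adjusted p = 0.870, interval 0.908-fold to 1.14-fold).

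A probe set shared by Ces1f and the related Cesl1 entered no count of members. Controls were at 10.55 ± 0.15 (SD, n = 5) and HMB rats at 10.68 ± 0.04, a log2 difference of 0.13 ± 0.08 (SE, limma adjusted p = 0.357), with 1 HMB animal above all controls. The Ces1 genes lie next to one another in RefSeq and are close in sequence, and signal shared between neighbours on the probes was not tested.

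Ces2c, the CES2 class member, showed the largest spread among HMB animals of the members. Controls were at 7.88, 7.63, 7.95, 7.73 and 7.36, and HMB animals at 7.79, 7.89, 7.57, 8.52 and 8.17. HMB 4 and HMB 5 lay above every control, and HMB 1, HMB 2 and HMB 3 lay within the control range. The log2 difference was 0.28 ± 0.17 (SE, n = 5 per group, limma adjusted p = 0.317), with a 95% interval from -0.08 to 0.64, or 0.946-fold to 1.55-fold. It stayed above 0 in each of 22 alternatives, from 0.13 with HMB 3 to 5 left out to 0.40 after quantile normalization. Some of these, such as another prior, filter or threshold, cannot change the difference, and the others share animals. The Ces2c difference passed in 0 (limma adjusted p at least 0.201). It was 0.14 without HMB 4 and 0.38 without HMB 3. The genes nearest to Ces2c in their pattern over the 10 arrays were Fn3k, a kinase that repairs glycated proteins, with a root-mean-square difference of 0.12 after centring, and Tmem231, with 0.13. Both were picked for that likeness, so shared high and low animals follow from the choice. Fn3k was highest in HMB 4 at 7.06 and lowest in control 5 at 5.88. Tmem231 was highest in HMB 4 at 7.11 and lowest in control 4 at 6.40. Neither passed the test (limma adjusted p = 0.318 and 0.310).

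Aadac had signals of 10.50, 10.31, 10.48, 10.45 and 10.37 in controls and 10.52, 10.41, 10.47, 10.56 and 10.44 in HMB. HMB 1 and HMB 4 were just above the highest control, and the other 3 lay among the controls. The log2 difference was 0.06 ± 0.07 (SE, n = 5 per group, limma adjusted p = 0.652), with an interval from 0.933-fold to 1.16-fold.

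Ephx1, the microsomal enzyme of xenobiotic epoxides, was at 11.95, 11.78, 11.85, 11.35 and 11.62 in controls and at 12.08, 11.79, 11.51, 11.41 and 11.91 in HMB. The highest array was HMB 1 and the lowest control 4, with both groups spread over about the same range. The log2 difference was 0.03 ± 0.14 (SE, n = 5 per group, limma adjusted p = 0.907), with an interval from 0.826-fold to 1.27-fold. HMB 4 had the lowest Ephx1 of the HMB group and the highest Ces2c, while HMB 3 was low for both.

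**Figure D2:**
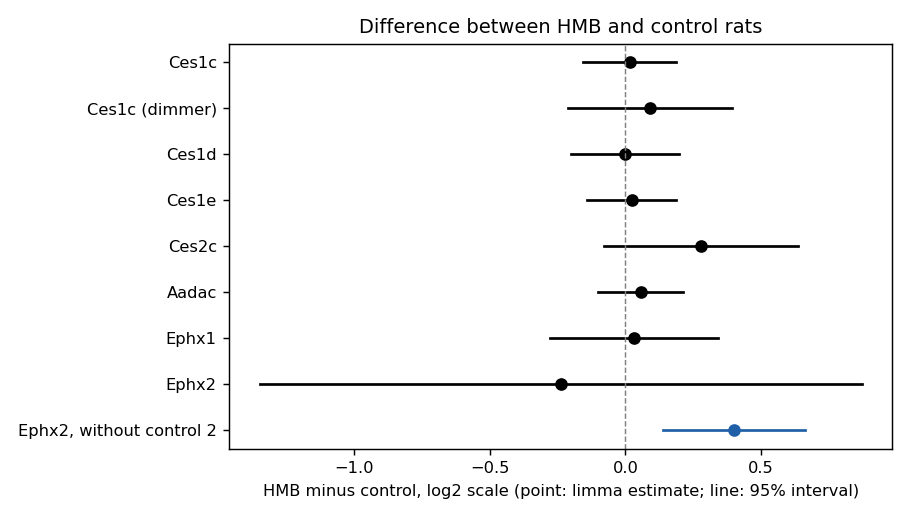
Log2 difference between HMB and control rats for each member probe set (points, limma estimates from 5 rats per group) with 95% intervals (lines). The intervals of all 8 probe sets include 0, and Ephx2 without control 2 (blue) lies at 0.40, between 0.14 and 0.66.

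Ephx2, the soluble enzyme of fatty acid epoxides, gave the widest values. Controls were at 5.88, 8.92, 5.78, 5.72 and 5.49, and HMB animals at 5.91, 6.23, 5.98, 6.42 and 6.06. Control 2 was the highest array, 3.20 log2 units above the mean of the other 4 controls, and all 5 HMB animals lay above those 4 controls. With all 10 animals the log2 difference was -0.24 ± 0.51 (SE, n = 5 per group, limma adjusted p = 0.803), with an interval from 0.392-fold to 1.83-fold. The median of the HMB group was 0.28 above the control median, the opposite sign to the difference in means (exact two-sided rank test p = 0.151). An exact permutation test of the means over all 10 animals did not give a p under 0.05.

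Without control 2, an animal set aside after its value was seen, Ephx2 was at 5.72 ± 0.17 (SD, n = 4) in controls and 6.12 ± 0.20 (n = 5) in HMB. The log2 difference was 0.40 ± 0.12 (SE), or 1.32-fold, with a 95% interval from 0.14 to 0.66 on the log2 scale, and it did not pass over all probe sets (limma unadjusted p = 0.00597, adjusted p = 0.134). Exact two-sided permutation and rank tests over 126 assignments both gave p = 0.0159. That is the smallest p of the rank test, which any gene without overlap between these groups reaches. In the limma fit without control 2, 19.1% of probe sets had an unadjusted p under 0.05 and 0 passed the adjusted threshold. Without that animal 6.82% had groups without overlap and 3.40% had all HMB values above all control values. With control 2 out, the difference was 0.48 after cyclic loess normalization, 0.51 after quantile normalization, 0.37 with arrays set to the same median and 0.47 with the poly-A control signal as a covariate (limma adjusted p from 0.136 to 0.396). It was 0.41 with HMB 1 counted as a control and 0.35 with HMB 3 to 5 also left out (limma adjusted p = 0.118 and 0.512). These 6 settings were chosen after the data were seen.

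The Ephx2 value of control 2 was uncommon on its own array. Control 2 was the highest of the 10 arrays in 3089 probe sets, and its lead over the next array was 2.50 log2 units, or 5.64-fold, for Ephx2 and 1.18 or less for every other probe set. Over all 10 arrays no other probe set had an array leading the rest by more than 1.83, the lead of HMB 1 for Rgs16. Leads of over 1 were found in 3 probe sets for control 2 and in 0 to 10 for the other arrays. In the other direction control 2 lay over 1 below all others in 5 probe sets, and the other arrays did so in 0 to 17. The largest such gap of control 2 was 6.47, in a probe set not assigned to exactly 1 gene symbol. By SD among controls, Ephx2 ranked 8 of 31042.

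**Figure D3:**
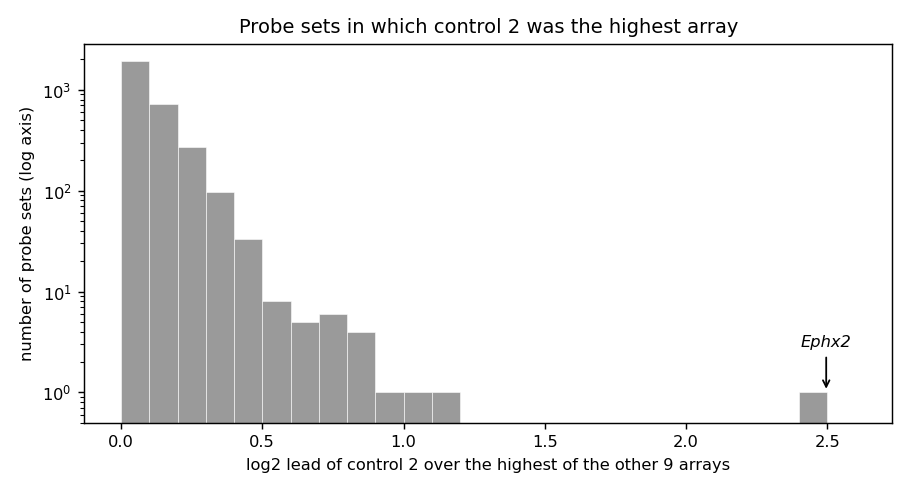
Number of probe sets (log axis) by the log2 lead of control 2 over the highest of the other 9 arrays, for the 3089 probe sets in which control 2 was highest, in bins of 0.1. Ephx2, at 2.50, is separate from the rest, which end at 1.18.

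Control 2 did not stand out as high in the measured genes close to Ephx2, several of which were dim. Of the 20 protein-coding genes nearest in RefSeq order, 10 on each side, 18 had a probe set. Control 2 was the highest array in 1 of them, Ccdc25, by 0.14. The next genes on either side, Adam2 and Chrna2, had log2 signals of 2.38 and 2.76 in control 2, with Chrna2 lowest there. Both are near the lower end of the signal scale, as is Ebf2 at 1.91. Of the brighter neighbours, Gulo was at 11.02 in control 2 and between 10.59 and 11.14 in the other arrays. Clu was at 11.726 in control 2 and between 11.494 and 11.730 in the others. A rise shared by the region was not tested. The genes nearest to Ephx2 in pattern over the 10 arrays were Etfbkmt, a lysine methyltransferase of the mitochondrial electron transfer flavoprotein, with a root-mean-square difference of 0.59, and Npy, a neuropeptide, with 0.63. The high value of control 2 dominates this search, which therefore favours genes high in that animal. Etfbkmt was at 7.33 in control 2 and between 5.86 and 6.33 elsewhere. Npy was at 6.89 in control 2 and between 5.40 and 6.06 elsewhere. Their distances were larger than those of the Ces2c neighbours, but Ephx2 itself varied more over the arrays (SD 0.98, against 0.32 for Ces2c). For Etfbkmt and Npy the HMB rats did not lie above the other controls as a group.

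The members fell apart in how much they varied between animals. Against the 1000 other probe sets closest in mean level, the range over 10 arrays of Aadac lay at the 17.3 percentile, that of Ces1e at 22.7, of Ces1c at 34.3 and of Ces1d at 54.5. Ephx1 lay at 89.8, Ces2c at 95.3 and Ephx2 at 99.8. Without control 2, a choice made after seeing the data, the Ephx2 range fell from 3.42 to 0.93 log2 units, at the 76.5 percentile, while Ephx1 was at 90.5 and Ces2c at 95.6.

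Around the members, 51 genes of 5 lists of related enzymes and regulators were measured, and 1 of them, Cyp1a1, rose while the others did not pass. Over all genes 231 of 14217, or 1.62%, passed, so a single call among 51 is near the background. Of the 19 other carboxylesterase genes listed, 1 had a probe set of its own, Ces5a, an esterase known from the epididymis, at 3.00 ± 0.06 (SD, n = 5) and 3.10 ± 0.18 (limma adjusted p = 0.524). Of 4 other epoxide hydrolases and relatives, 3 were measured and 0 passed. Ephx4 was at 2.17, 2.04, 2.37, 2.24 and 2.13 in controls and 2.42, 2.53, 2.55, 2.44 and 2.30 in HMB. HMB 1 to 4 lay above all controls and HMB 5 did not, a log2 difference of 0.26 ± 0.08 (SE, limma adjusted p = 0.108) near the lower end of the signal scale. Lta4h, a leukotriene hydrolase that acts on an epoxide, differed by -0.18 ± 0.09 (limma adjusted p = 0.239), with 8.78 in controls and 8.60 in HMB.

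Of 20 measured esterases, arylesterases and amidases, 0 passed, 12 lay above 0 and 8 below, and the median was 0.07. Lipe, hormone-sensitive lipase, was at 5.83 ± 0.17 (SD, n = 5) in controls and 6.16 ± 0.25 in HMB (log2 difference 0.33, limma adjusted p = 0.142). Pon2, a paraoxonase, was at 10.84 ± 0.07 and 10.65 ± 0.16 (difference -0.19, limma adjusted p = 0.205). Pon1, the plasma paraoxonase made in liver, picked with its values known, was at 12.84 in both groups (limma adjusted p = 0.996).

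Among 12 measured monooxygenases that form epoxides and their electron donors, 1 rose, 11 did not pass and the median was 0.11. Cyp1a1, which makes arene oxides from polycyclic hydrocarbons, was at 3.91, 3.00, 3.23, 3.76 and 3.36 in controls and 4.89, 4.28, 4.16, 4.06 and 4.48 in HMB. The control mean was low, at 3.45 beside 3.47 for the adipocyte marker Adipoq, and no detection calls were used. All HMB animals lay above all controls, and the log2 rise was 0.92 ± 0.19 (SE, n = 5 per group, limma adjusted p = 0.0380). That call was lost after cyclic loess (0.82, limma adjusted p = 0.0664) and quantile normalization (0.84, adjusted p = 0.0614) and with HMB 1 counted as a control (0.55, adjusted p = 0.247). It was also lost without any 1 of controls 2 to 5 or HMB 2 to 5 (limma adjusted p from 0.0514 to 0.0910) and kept without control 1 or HMB 1 (0.0196 and 0.0381). Cyp1a2 differed by 0.44 ± 0.11 (limma adjusted p = 0.0523). Its HMB values also lay above all controls, the lowest at 12.390 against 12.387 for the highest control. Groups without overlap were found in 5.77% of all probe sets. Cyp1a2 passed with the lowest 25% of probe sets left out (adjusted p = 0.0479), the trended robust prior (0.0292), array weights (0.0424) or control 1 left out (0.0480). It did not pass after cyclic loess (0.45, limma adjusted p = 0.0734) or quantile normalization (0.46, adjusted p = 0.0714). Sqle, which forms squalene epoxide in sterol synthesis, differed by -0.56 ± 0.15 (limma adjusted p = 0.0685), with 7.94 in controls and 7.38 in HMB. The fatty acid epoxygenases Cyp2c11 and Cyp2c23, whose products Ephx2 hydrolyses, were picked with their values known. They were at 13.22 and 12.88 in controls and at 13.23 and 12.87 in HMB (limma adjusted p = 0.959 and 0.938).

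Of 15 measured receptors and regulators known to act on the members, 0 passed, with a median of 0.06. Nr1i2, which encodes PXR, was at 7.37 ± 0.08 (SD, n = 5) in controls and 7.65 ± 0.20 in HMB (log2 difference 0.28, limma adjusted p = 0.124), with 4 of 5 HMB animals above all controls. Gata4 differed by -0.37 ± 0.11 (SE, limma adjusted p = 0.0876). Nr1i3, which encodes CAR and was picked with its values known, was at 7.93, 7.45, 8.11, 7.44 and 6.54 in controls and 8.29, 8.34, 7.05, 8.32 and 9.09 in HMB. The lowest HMB animal for Nr1i3, HMB 3, was also the lowest HMB animal for Ces2c, and control 5 was the lowest control for both. Control 3 was the highest control for both, but the highest HMB animal was HMB 5 for Nr1i3 and HMB 4 for Ces2c. A link between these genes was not tested. The Nr1i3 difference was 0.73 ± 0.34 (limma adjusted p = 0.213). Ppara, which encodes PPAR-alpha and was likewise picked, was at 4.61 ± 0.44 and 4.75 ± 0.38 (limma adjusted p = 0.716).

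**Figure D4:**
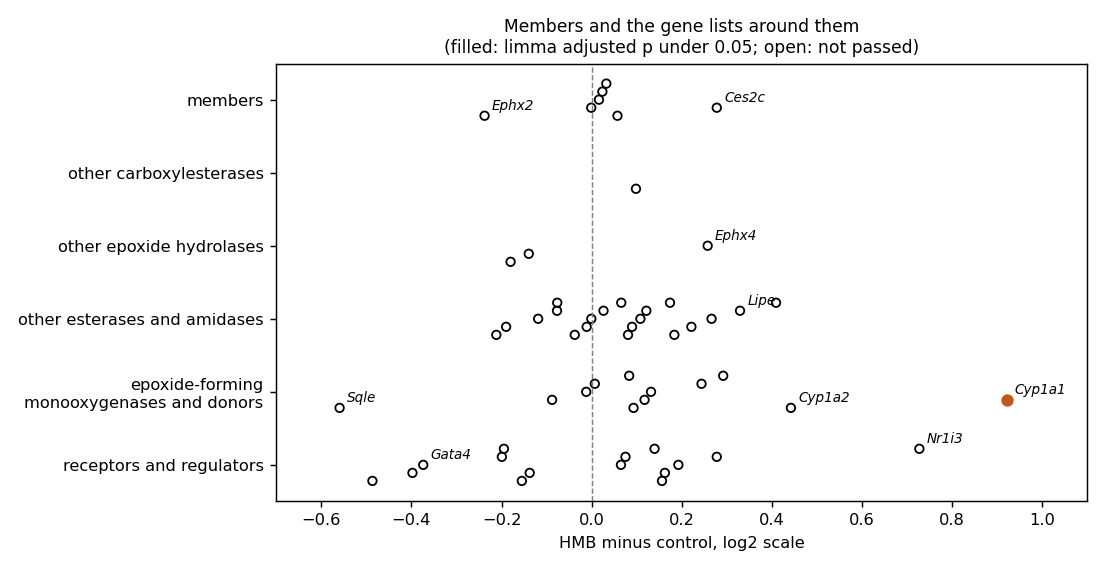
Log2 differences between HMB and control rats (x axis) for the members and for 5 lists of related genes (rows), 1 point per gene. The filled point, Cyp1a1 at 0.92, passed the adjusted threshold, and the open points did not.

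The tissue label was checked on liver markers. The 8 measured hepatocyte markers averaged 13.37 to 13.51 in controls and 13.31 to 13.41 in HMB, with Alb at 14.61 and 14.57. Over 11 marker lists 63 genes were measured, 0 of them called by limma. An unadjusted limma p under 0.05 was found for 9 of the 63, beside 3414 of all 14217 genes. Control 2 was the highest array for none of the 11 lists and the lowest for 3. In bulk liver RNA, fewer cells of a type and less RNA per cell cannot be told apart. Control arrays had an SD of all log2 values of 2.47 ± 0.0236 (SD, n = 5) and HMB arrays one of 2.40 ± 0.0261 (exact permutation test, two-sided, p = 0.00794, the smallest the design allows, adjusted p = 0.0317 over 4 array measures), and the poly-A minus hybridisation control signal was -2.04 and -1.73 (exact permutation p = 0.0238, adjusted p = 0.0476). Without control 1, control 2 or control 5 the latter p was 0.0556 by the same exact permutation test. Control 2 was the highest array by that SD, at 2.50. Among controls it had the lowest 3' minus 5' signal of GAPDH, at 1.383, and of beta-actin, at 3.25, a measure of RNA integrity. HMB 1, at 1.312 and 3.16, and HMB 2, at 1.378 and 3.18, were lower still. The part of these measures in the Ephx2 value was not tested. GAPDH was at 1.61 ± 0.162 and 1.73 ± 0.360 by group, and beta-actin at 3.51 ± 0.158 and 3.50 ± 0.336 (exact permutation adjusted p = 0.688 and 0.897).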

How the data were processed

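The log2 signal of each probe set was deposited by the authors. RMA, which corrects background, normalizes arrays together and summarises probes, is named in the submitters' processing notes without a version. The tests leave out 57 control probe sets. Groups follow the titles, and replicate numbers follow deposition order. Gene symbols came from the platform's annotation (20826 of 31042 with 1 symbol), updated through gene identifiers to RefSeq GRCr8 (20758 matched), which served for names and gene order.

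Tests used limma 3.58.1 in R 4.3.3 (lmFit, eBayes, default prior), HMB minus control, with Benjamini-Hochberg adjustment over 31042 probe sets. Each gene counts by its brightest probe set. No filter was applied. Tested on simulated data of 31042 probe sets, the step recovered 52% of changes of 0.5 and 95% of changes of 1 on the log2 scale, with 7 false calls. Simulated probe sets were drawn independently, with the spread of these arrays.

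The members and lists were chosen with earlier results of these data known. Named genes were the members, list genes called, up to 2 more per list by p, and, for members with an SD of at least 0.3 over the arrays, the 2 genes nearest in pattern. Other genes named are said to be picked with their values known. Alternatives changed normalization, filter, prior, weights, covariate, the group of HMB 1 and the animals included. The number of arrays limits the precision. Array correlations ran from 0.987 to 0.995. Promoter windows were aligned with Biopython 1.88, and figures drawn with matplotlib 3.10.9 in Python 3.11.15.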

Additional observations from a re-analysis of the deposited data

Results flagged for a closer look

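Within the control group the Ephx2 signal of control 2, 8.92, lay far from the next control at 5.88. The same gap criterion, which chance meets in about 1 in 20 groups, was applied to 44 groups of 5 and met in 2. The other was Lipe in control 1, at 6.14 against 5.80 for the next control.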

How the results depend on the processing

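No paired analysis was possible because the replicate numbers follow deposition order and pair no animals. Members called were 0 in every alternative run, over 181 member values (limma adjusted p at least 0.118). The number of probe sets called, 528, was 125 after cyclic loess, 106 after quantile normalization, 925 with array weights, 244 with 1 probe set per gene, 0 with treat against 1.2-fold, 0 with the poly-A covariate, 0 without HMB 3 to 5 and 0 at an adjusted p of 0.01. It ran from 0 to 1653 with 1 animal left out (0 without control 2, 4 or 5 or HMB 4, 1 without control 3 or HMB 5, 65 without HMB 2, 243 without HMB 3, 997 without HMB 1 and 1653 without control 1). Of the genes of the related lists, 1 was called, against 0 after cyclic loess, quantile normalization, treat, the poly-A covariate, HMB 1 as a control, without HMB 3 to 5 and at 0.01. The count was 2 with the lowest 25% left out, the trended robust prior or array weights, and 0 to 3 with 1 animal left out. Probe sets without overlap numbered 1791, 870 with 1 probe set per gene, 5153 without HMB 3 to 5 and 2116 to 3875 with 1 animal left out. Members without overlap were 0, and 1 without control 2, Ephx2 (range 0 to 1).

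Ces1c was 0.02, and -0.0038 after cyclic loess, -0.021 at the same median, -0.076 with the poly-A covariate and -0.065 without HMB 3 to 5 (-0.016 to 0.060 with 1 animal left out). Its dimmer probe set was 0.09, and -0.018 after cyclic loess and -0.014 after quantile normalization (-0.0043 to 0.17). Ces1d was -0.0010, and 0.0097 after quantile normalization, 0.0087 with array weights, 0.016 with the poly-A covariate and 0.052 with HMB 1 as a control (-0.050 to 0.037). Ces1e was 0.02, and -0.014 at the same median (-0.010 to 0.060). Ephx1 was 0.03, and -0.0051 at the same median and -0.12 with HMB 1 as a control (-0.058 to 0.11). Ces5a was 0.10, and -0.0056 after cyclic loess, -0.010 after quantile normalization and -0.045 without HMB 3 to 5. Ephx2 ran from -0.45 to 0.40 with 1 animal left out, above 0 without control 2. With control 2 left out it was 0.48 after cyclic loess, 0.37 at the same median, 0.51 after quantile normalization, 0.47 with the poly-A covariate, 0.41 with HMB 1 as a control and 0.35 without HMB 3 to 5. With 1 probe set per gene the dimmer Ces1c probe set had no value, and with the lowest 25% left out Ephx4 had none. Aadac and Ces2c kept their sign in all 22 alternatives, some of which, such as another prior or threshold, cannot change a difference. With 1 animal left out, the group difference in the poly-A measure ran from 0.239 to 0.364 and that of beta-actin from -0.129 to 0.0727, and beta-actin was 0.132 with HMB 1 as a control. The cause of these shifts was not tested. Values of dim probe sets such as Ephx4 lie near the lower end of the signal scale, and no detection calls were used.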
